A study of Mus musculus with 12 samples.

Results

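RNA from G0M+CD27+ (DP) and G0M-CD27+ (SP) leukaemic cells of vehicle-treated mice with chronic myelogenous leukaemia (CML)-like disease was compared across all genes. The comparison used the 3 DP and the 3 SP libraries of the vehicle arm, 6 of the 12 libraries of the series, chosen by their labels. The other 6 came from imatinib-treated mice and entered the filter on low values, the estimate of spread and a closing comparison. Both populations were BCR-ABL1+ Lin-Sca1+cKit+ (KSL) CD27+ cells on a C57BL/6 background, sorted as 100 cells per library from bone marrow and spleen. Their source was bone marrow of G0M mice, retrovirally transduced with BCR-ABL1 and transferred into lethally irradiated recipients, which then received vehicle by daily oral gavage. The gate that separated them was G0M, a fusion of mVenus with a p27 mutant that lacks CDK inhibitory activity, which accumulates in cells resting in G0. In these mice a Vav1-driven Cre switches the reporter on from the Rosa26 locus, so it reads out blood cells only. The labels call DP cells CML stem cells and SP cells CML progenitors, and do not say whether a DP and an SP library came from the same mice or whether mice were pooled. The p-values below therefore measure the spread between these libraries, which may be technical.

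CML is driven by the BCR-ABL1 kinase, and its stem cells are the fraction that sustains the disease and survives kinase inhibitors. Resting cells carry few transcripts of the mitotic apparatus, because those genes are switched on in late S and G2 phase and are repressed in G0 by the DREAM complex. That complex reaches many of them through a short promoter element, the cell cycle genes homology region (CHR), often with CCAAT boxes bound by NF-Y upstream of it. Replication-dependent histone genes are in turn transcribed during S phase, when new DNA is packed.

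The labels were compared with the RNA first. Mki67, the classical proliferation marker, stood at 21.2, 10.9 and 12.0 RPKM in DP1, DP2 and DP3 and at 57.7, 50.8 and 54.0 RPKM in SP1, SP2 and SP3. The groups did not overlap, and Mki67 was lower in DP cells by a log2 difference of -1.94 ± 0.23 (SE, n = 3 per group, adjusted p = 0.00263). Cd27, the gate marker that both populations share, lay between 12.9 and 17.1 RPKM in all 6 libraries and Kit between 16.8 and 32.1 RPKM. Cdkn1b, which encodes p27, overlapped between the groups (log2 difference 0.01 ± 0.22), and neither Abl1 (0.22 ± 0.19) nor Bcr (0.23 ± 0.19) passed the test. Reads of the reporter or of the BCR-ABL1 vector cannot be separated from those of the mouse genes in these files, so these genes do not check the gate.

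Each library held 13.39 to 20.46 M reads, as estimated from the steps in the RPKM values and annotated gene lengths. Of these reads 31.0 to 34.3% fell on the listed features, and 13467 to 14299 genes were above 0 per library. One library stood apart. In DP1 the mitosis genes lay a median of 1.15 on the log2 scale above their mean in the other DP libraries, and neutrophil and monocyte genes 2.1 above. SP2, the library with the neighbouring library number, was also high in neutrophil and monocyte genes (1.56 above the other SP libraries) and low in immediate-early genes (-1.11). The deviations of the libraries from their group means went together within each pair of neighbouring library numbers, with correlations over genes of 0.50 for DP3 with SP1 (numbers 7 and 8), 0.51 for DP1 with SP2 (9 and 10) and 0.52 for DP2 with SP3 (11 and 12). Every other pairing of a DP with an SP library correlated negatively. Deviations from a group mean cancel within the group, so these negative values follow in part from the positive ones and add no evidence. Because of the positive correlations, results are given also from a fit with the 3 neighbouring pairs as a block, called the block below, where it changes a call.

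Of 10072 genes tested with limma on log2(RPKM + 0.1), 228 (2.26%) passed a Benjamini-Hochberg adjusted p of 0.05. In DP cells 29 genes (0.288%) were higher and 199 (1.98%) were lower. With the block 980 genes passed (9.73%), of which 420 were higher (4.17%) and 560 lower (5.56%), and they included all 228. Leaving out 1 library moved the total from 125 without DP3 to 258 without DP1. It was also moved by over 1.5 times when DP2 (133 genes), SP1 (131) or SP2 (142) was left out. The median log2 difference over all tested genes was -0.0153, the 3 DP libraries lay all above the 3 SP libraries for 9.68% of tested genes and all below them for 12.7%. On the first principal component of the 6 libraries, which held 48.4% of the variance, DP1, DP2 and DP3 scored -5.1, -40.6 and -36.6 and SP1, SP2 and SP3 scored 21.3, 49.3 and 11.6. The populations did not overlap there and accounted for 74.8% of the variance of these scores, but 3 libraries against 3 can give no two-sided p under 0.1 in the exact permutation test, the value found.

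**Figure D1:**
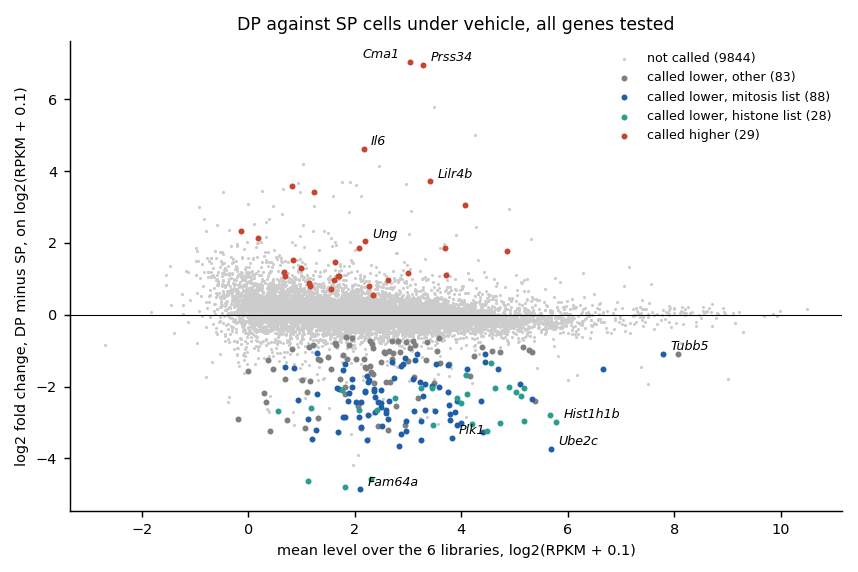
Log2 difference between DP and SP cells (vertical) against the mean level over the 6 libraries (horizontal, log2(RPKM + 0.1)), 1 point per tested gene. The 199 genes called lower lie mostly in the mitosis list (88) and the histone list (28), while the 29 called higher are led by the proteases Cma1 and Prss34.

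The genes lower in DP cells were led by those of cell division. Of 102 genes listed for mitosis, all of them tested, 88 fell in DP cells and none rose, and their median log2 difference was -2.15. With the block 96 fell. The 12 largest falls without overlap between groups were Fam64a, Hist1h4k, Hist1h4a, Hist1h2bm, Ube2c, Nusap1, Hmmr, Kif2c, Depdc1a, Plk1, Kif18b and Cenpf, that is 9 genes of the mitosis list and 3 histone genes. The summed level of the mitosis genes was 883.6 RPKM in DP1, 489.8 in DP2 and 510.8 in DP3, and 2041.5, 1880.9 and 1984.8 RPKM in SP1, SP2 and SP3. DP1 was thus the highest DP library but remained below every SP library. Within the pairs of neighbouring libraries the median difference of the list was -2.47 for 7 and 8, -1.26 for 9 and 10 and -2.68 for 11 and 12. When 1 library was left out, 65 (without DP3 or SP1) to 93 (without DP1) members fell.

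The mitotic genes with large falls act at successive steps of division. Plk1, the kinase that drives entry into mitosis and spindle assembly, was at 6.0, 1.1 and 1.65 RPKM in the DP libraries and at 25, 25 and 25.4 RPKM in the SP libraries. It fell by 3.43 ± 0.49 (log2, SE, adjusted p = 0.00529). Ccnb1, the cyclin that activates Cdk1 for mitosis, was at 10.1, 2.07 and 2.54 RPKM in DP cells and at 36.0, 33.6 and 42.2 RPKM in SP cells (log2 difference -3.26 ± 0.51, adjusted p = 0.00641). In both genes the DP libraries were all lower and DP1 was the highest of them. Cdk1 itself fell by 2.00 ± 0.33, and Foxm1, the transcription factor of the G2/M programme, fell by 2.58 ± 0.37.

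Genes that finish division were lower in DP cells too. Ube2c, the ubiquitin-conjugating enzyme of the anaphase-promoting complex, was at 26.4, 3.36 and 3.48 RPKM in DP cells and at 79.6, 101.4 and 94.8 RPKM in SP cells (log2 difference -3.73 ± 0.69, adjusted p = 0.012). Its call was kept in 3 of the 6 fits that left out a library. Spindle genes fell as well: Nusap1, a microtubule-binding protein, by 3.67 ± 0.61, Hmmr by 3.50 ± 0.62, the microtubule-depolymerizing kinesin Kif2c by 3.48 ± 0.59 and the kinesin Kif18b by 3.31 ± 0.47. The kinetochore gene Cenpf fell by 3.27 ± 0.50 and the kinase Aurka by 2.67 ± 0.38. Incenp, a subunit of the chromosomal passenger complex, and Prc1, which bundles the central spindle, had adjusted p among the smallest of the list. Incenp stood at 3.56 to 6.55 RPKM in DP cells and at 19.0 to 24.8 RPKM in SP cells, and Prc1 at 2.31 to 5.64 and 21.4 to 25.3 RPKM, both with an adjusted p of 0.00216. The tubulins Tubb5 and Tubb4b, the most abundant members and in use in resting cells too, fell less, by 1.09 ± 0.18 and 1.5 ± 0.23. A further 83 genes called lower were in neither the mitosis nor the histone list. Among them, named after their values were seen, were the CDK-binding phosphatase Cdkn3 (-3.24 ± 0.54), the cytokinesis genes Kif14 (-2.92 ± 0.61) and Cep55 (-2.55 ± 0.45), and cyclin F, Ccnf (-2.32 ± 0.28).

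**Figure D2:**
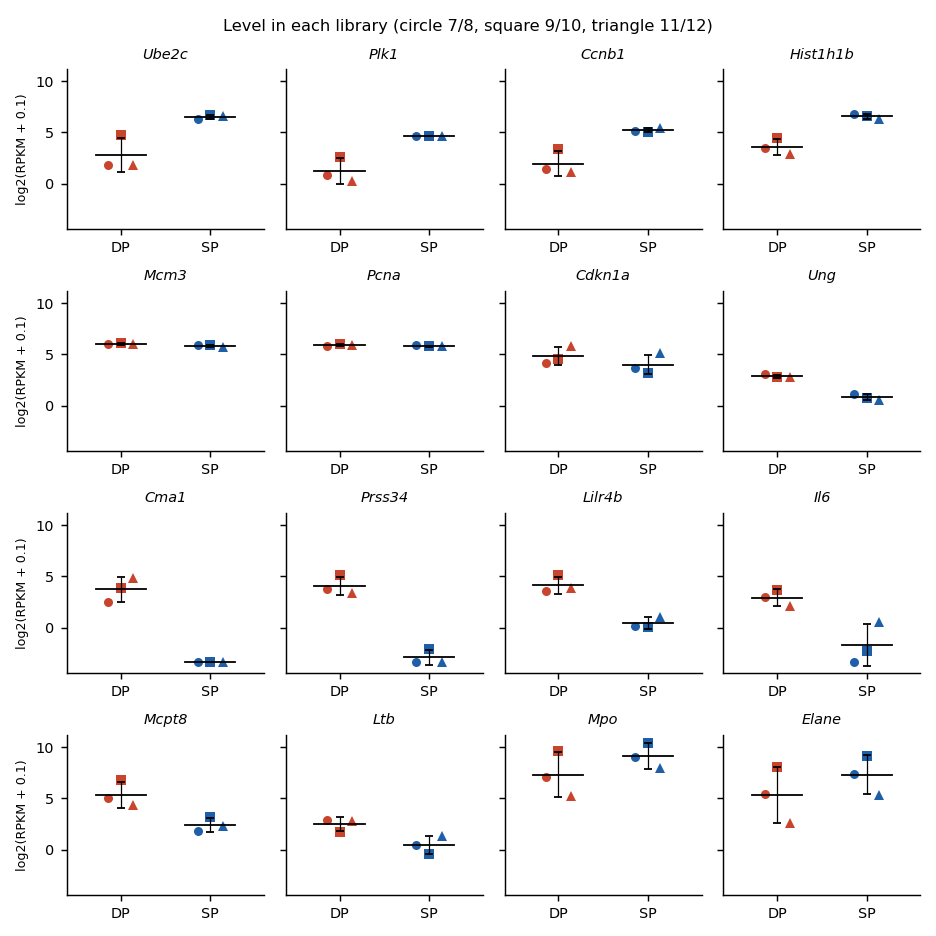
Level of 16 genes in each library on 1 common axis, log2(RPKM + 0.1), with DP libraries in red, SP libraries in blue, the mean (line) and SD (bar) of 3 libraries and a marker shape for each pair of neighbouring library numbers. Plk1, Ccnb1 and Hist1h1b lie lower in all DP libraries, Mcm3 and Pcna lie near one level in both populations, and Mpo and Elane spread more between pairs than between populations.

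Promoter sequences of the genes called lower were read from the RefSeq table for GRCm38.p6, whose windows run from 250 bases before to 50 bases after each start site. Of the 199 genes 164 had windows there, 179 in all, 32 of them matched through an older symbol. The CHR letters TTTGAA or TTCGAA, on either strand, were in 64.2% of these windows, in 14.3% of the 10334 windows of all tested genes and in 19.2% of the 32851 windows in the table. The share was also 58.2% for the 79 windows of called genes outside the mitosis and histone lists, and 6.7% for the 30 windows of genes called higher. In the windows of the genes called lower the letters were most frequent near the start site: 39.1% of them held a CHR whose first base lay between 75 bases before and 24 bases after it, against 3.8% of the windows of tested genes. CCAAT or its reverse complement was in 68.7% of the windows of genes called lower and in 38.3% of those of tested genes, and both motifs together were in 87 of the 179 windows. A match of letters is a description and not a bound site.

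Of the 12 genes with the largest falls and the 7 other mitosis genes named by the rule, 15 had a window in the table and 11 of these held the CHR letters. The 30 bases around the letters nearest to the start site are printed for 8 of them, 5′ to 3′ on the coding strand, with the CHR in capitals, because these letters were in 64.2% of the windows of falling genes and in 14.3% of those of tested genes:
Plk1: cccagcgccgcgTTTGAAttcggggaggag
Hmmr: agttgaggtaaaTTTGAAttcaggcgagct
Kif18b: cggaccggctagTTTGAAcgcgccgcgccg
Cenpf: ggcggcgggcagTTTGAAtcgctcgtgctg
Prc1: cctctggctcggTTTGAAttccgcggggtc
Depdc1a: cgctcggagataTTCAAAtcagcagcgcgg
Ube2c: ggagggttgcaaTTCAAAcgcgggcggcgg
Mki67: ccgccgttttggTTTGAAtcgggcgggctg
Counted from the start site as 0, the first CHR base lay at 30 in Plk1 (chr7:122159453-122159482, plus strand), at 8 in Hmmr (chr11:40733412-40733441, minus), at 3 in Kif18b (chr11:102925104-102925133, minus) and at 2 in Cenpf (chr1:189688067-189688096, minus). It lay at -5 in Prc1 (chr7:80294434-80294463, plus), at -16 in Depdc1a (chr3:159495405-159495434, plus), at -29 in Ube2c (chr2:164769888-164769917, plus) and at -98 in Mki67 (chr7:135716460-135716489, minus). Except in Mki67 the letters of these 8 thus sat within 30 bases of the start, while in the 3 genes not printed here they lay farther upstream, at -101 in Hist1h2bm, -103 in Kif2c and -198 in Tubb4b. The 250 bases before the Ube2c start (chr2:164769679-164769928, plus strand) are shown because they also hold 6 CCAAT boxes, 2 of them overlapping, upstream of the CHR:
Ube2c promoter: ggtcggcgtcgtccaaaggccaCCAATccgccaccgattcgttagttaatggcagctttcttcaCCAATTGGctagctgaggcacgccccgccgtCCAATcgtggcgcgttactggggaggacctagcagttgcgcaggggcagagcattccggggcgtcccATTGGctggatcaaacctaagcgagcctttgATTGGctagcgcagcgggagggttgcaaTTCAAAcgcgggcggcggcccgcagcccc
The capitals mark the CHR and the CCAAT boxes, read on either strand.

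**Figure D3:**
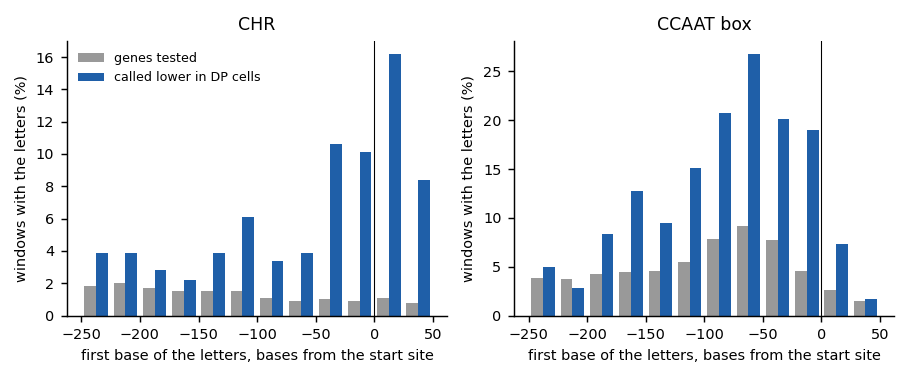
Percentage of promoter windows with the CHR letters (left) or a CCAAT box (right), by the distance of the first base of the letters from the start site in bins of 25 bases, for windows of all tested genes and of genes called lower in DP cells. The CHR is most frequent from the start site to 24 bases after it (16.2% of windows of genes called lower, 1.1% of all tested) and the CCAAT box upstream of it.

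Replication-dependent histones fell with the mitosis genes. Of 67 listed genes 55 were tested; 28 of these fell in DP cells, none rose, and the median log2 difference was -2.61. With the block 45 fell, and leaving out 1 library gave 18 (without SP1) to 33 (without DP1) falls. Their summed level was 280.4, 160.7 and 180.6 RPKM in DP1, DP2 and DP3 and 1296.3, 902.7 and 1020.2 RPKM in SP1, SP2 and SP3, so that the highest DP library was well under the lowest SP library. The linker histone Hist1h1b (H1.5) stood at 21.5, 7.16 and 11.3 RPKM in DP cells and at 113.3, 95.6 and 81.6 RPKM in SP cells and fell by 2.98 ± 0.40 (adjusted p = 0.00458). The linker histone Hist1h1e fell by 2.03 ± 0.22 and Hist2h2bb by 2.80 ± 0.33. Some core histones were almost without reads in DP cells. Hist1h4a had 2 reads in the 3 DP libraries together and 97 in the SP libraries, a depth-adjusted ratio of reads of 43.8 (95% exact interval 11.8 to 367.2, counting error only) in favour of SP cells. Histone genes have near-identical copies, so the split of reads between single copies is uncertain. These messages lack a poly(A) tail, and the libraries were primed along total RNA, not from the tail.

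Both motifs were frequent in histone and mitosis promoters, the CHR in 52.9% and 67.8% of windows and CCAAT in 84.3% and 73.3%. The 250 bases before Hist1h2bm (chr13:21721794-21722043, plus strand, current symbol H2bc14) held 1 CHR and 3 CCAAT boxes, and those before Hist1h4a (chr13:23761250-23761499, minus strand, H4c1) held no CHR, 1 CCAAT box and 4 copies of the E2F letters TTTCCCGC. They are shown as a histone promoter with the CHR and one without it among the largest falls, with these motifs in capitals:
Hist1h2bm promoter: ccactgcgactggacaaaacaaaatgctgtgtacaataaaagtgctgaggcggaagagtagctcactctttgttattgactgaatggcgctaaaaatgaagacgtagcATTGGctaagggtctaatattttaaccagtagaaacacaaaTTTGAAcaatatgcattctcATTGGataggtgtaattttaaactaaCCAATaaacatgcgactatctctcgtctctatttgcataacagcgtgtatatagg
Hist1h4a promoter: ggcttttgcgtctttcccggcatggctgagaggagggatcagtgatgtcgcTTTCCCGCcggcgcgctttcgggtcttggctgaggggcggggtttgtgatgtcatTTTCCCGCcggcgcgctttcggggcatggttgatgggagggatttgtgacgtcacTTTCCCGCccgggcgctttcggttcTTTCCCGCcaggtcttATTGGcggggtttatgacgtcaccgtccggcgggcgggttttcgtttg
The Hist1h4a promoter was an exception: of the 51 windows of the tested histone genes 1 held the E2F letters TTTCCCGC or TTTGGCGC, against 318 of the 10334 windows of all tested genes.

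The genes that copy DNA did not follow the histones. Of 69 genes listed for DNA replication and nucleotide synthesis, all tested, 3 fell and none rose, with a median log2 difference of -0.10. With the block 8 fell and 1 rose. Pcna, the sliding clamp of the replication fork, stood at 62.8, 59.1 and 55.3 RPKM in DP cells and at 58.2, 54.6 and 55.6 RPKM in SP cells (0.07 ± 0.17, adjusted p = 0.878). The helicase subunit Mcm3 stood at 67.3, 62.4 and 63.5 against 58.8, 59.1 and 53.1 RPKM, all DP libraries above all SP libraries but without passing the test (0.18 ± 0.18, adjusted p = 0.678). Of the other subunits of the MCM helicase, named after their values were seen, Mcm2, Mcm4 and Mcm6 also lay higher in every DP library, by 0.42 ± 0.17, 0.45 ± 0.17 and 0.36 ± 0.17, with adjusted p of 0.273 to 0.396. Mcm5 (0.12 ± 0.19) and Mcm7 (-0.01 ± 0.19) overlapped. The 3 falls were Dbf4, the activator of the Cdc7 kinase that fires origins (-1.29 ± 0.23), Ticrr, which loads Cdc45 at origins (-1.23 ± 0.23), and Tk1, thymidine kinase (-0.75 ± 0.15). Dbf4 kept its call in 3 of the 6 fits that left out a library, Ticrr in 2 and Tk1 in none.

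E2f1, the transcription factor that switches on replication genes, moved against its list. It stood at 7.15, 6.0 and 7.48 RPKM in DP cells and at 4.17, 3.86 and 3.71 RPKM in SP cells. The groups did not overlap, and E2f1 passed the test only with the block (0.79 ± 0.16 with it, adjusted p = 0.0196, and 0.179 without). It lost that call when libraries 9 and 10 were left out of the block. E2f8, a repressor of the same targets, was lower with the block (-1.39 ± 0.23, adjusted p = 0.00773, and 0.107 without). In homologous recombination and Fanconi repair, 5 of 41 tested genes fell, none rose, and the median was -0.34. The falls dropped to 1 when DP2, DP3 or SP1 was left out. Among these Fancd2, which is loaded at stalled forks, fell by 2.00 ± 0.36, Polq, the polymerase of microhomology end joining, by 1.26 ± 0.22, Eme1 by 1.18 ± 0.23 and Parpbp by 2.89 ± 0.57. With the block 8 of these genes fell and Tonsl rose (0.53, adjusted p = 0.0496). Without libraries 9 and 10 the block gave 6 falls and no rise.

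Among CDK inhibitors and quiescence regulators 1 of 45 tested genes rose and 1 fell, with a median of 0.26, and with the block 10 rose and 2 fell. Without libraries 9 and 10 the block gave 1 and 1. Btg1, an antiproliferative factor of resting blood cells, stood at 15.1, 20.5 and 17.2 RPKM in DP cells and at 10.2, 5.31 and 9.74 RPKM in SP cells and rose by 1.11 ± 0.25 (adjusted p = 0.0419), but lost the call in each fit without 1 library. Mxd4 and Mxd1, which compete with Myc for Max, rose with the block by 1.06 ± 0.13 (adjusted p = 0.00285) and 0.90 ± 0.17 (0.0143). Mxd3 of the same family fell from 2.43, 1.36 and 3.09 RPKM in SP cells to 0.885, 0.689 and 0.624 RPKM in DP cells (-1.46 ± 0.32, adjusted p = 0.0311). It lost this call when DP2, DP3, SP1 or SP3 was left out. Cdkn1a, which encodes p21 and was named after its values were seen, was higher in the DP library of each pair, with 22.7, 54.7 and 17.2 RPKM in DP1, DP2 and DP3 beside 9.21, 33.9 and 13 RPKM in SP2, SP3 and SP1. It rose only with the block (0.80 ± 0.17, adjusted p = 0.0238; 0.516 without). Cdk6 (-0.04 ± 0.19) and Cdk4 (-0.24 ± 0.17) did not pass the test in either fit.

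**Figure D4:**
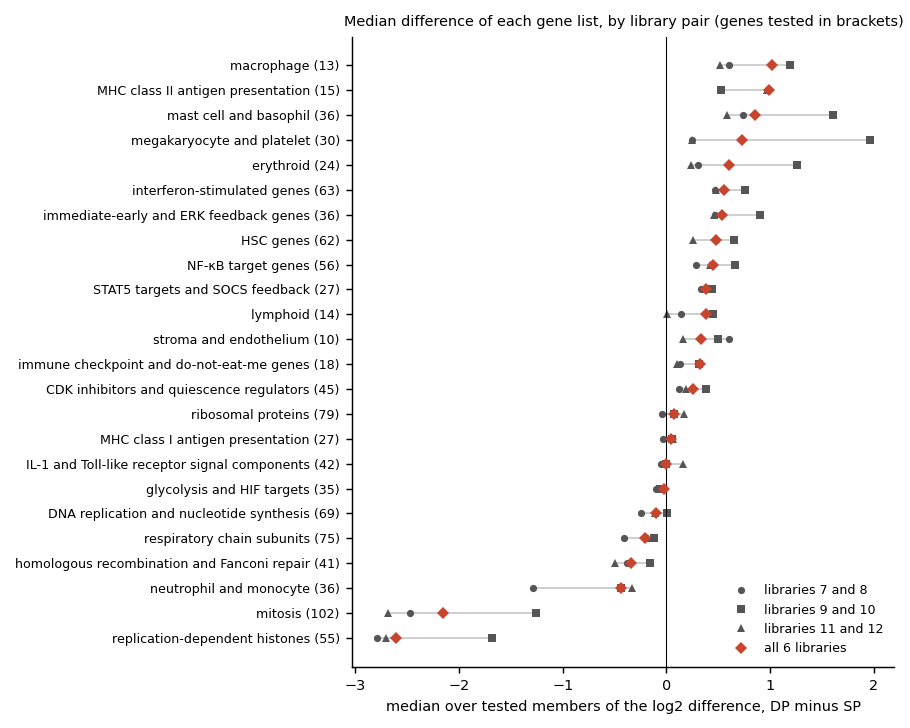
Median log2 difference between DP and SP cells over the tested members of 24 gene lists, for all 6 libraries (diamonds) and for each pair of neighbouring library numbers. The histone (-2.61) and mitosis (-2.15) lists lie below 0 in all 3 pairs, and the megakaryocyte, erythroid and mast cell lists lie highest in libraries 9 and 10.

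The genes called higher in DP cells were 29, against 199 called lower. With the block and each library scaled to the same median, the higher genes were the more numerous, 768 against 711. The 12 largest rises without overlap between groups were Cma1, Prss34, Il6, Lilr4b, Hmox1, Lgals3, Lilrb4a, Slfn5, P2ry10, Ung, Furin and Id2. Ung, the uracil-DNA glycosylase of base excision repair, had the smallest adjusted p of the 29 called genes. It stood at 7.01, 6.65 and 8.14 RPKM in DP cells and at 2.11, 1.61 and 1.37 RPKM in SP cells and rose by 2.05 ± 0.24 (adjusted p = 0.0026), a call kept in each fit without 1 library. Furin, the proprotein convertase, stood at 30.4, 15.1 and 15.6 against 5.69, 4.28 and 5.81 RPKM (1.87 ± 0.33, adjusted p = 0.00974). P2ry10, a lysophospholipid receptor, rose by 2.14 ± 0.33 and kept its call in each of the 6 fits. Id2, an inhibitor of basic helix-loop-helix factors, rose by 1.85 ± 0.41 and kept it in none.

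Lilr4b and Lilrb4a are neighbouring immunoglobulin-like receptors of mast cells and myeloid cells. Lilr4b stood at 33.9, 14.0 and 11.5 RPKM in DP cells and at 1.01, 0.952 and 2.0 RPKM in SP cells and rose by 3.72 ± 0.55 (adjusted p = 0.0056). Lilrb4a, an inhibitory receptor, stood at 58.6, 14.6 and 17.1 against 1.68, 2.39 and 5.69 RPKM (3.06 ± 0.65, adjusted p = 0.0268). The 2 genes are close copies, so reads may be split between them with uncertainty. Hmox1, which degrades heme, stood at 4.94, 3.65 and 0.901 RPKM in DP cells and at 0.308, 0.0748 and 0.0471 RPKM in SP cells (3.60 ± 0.59, adjusted p = 0.00733). The redox enzyme Srxn1 (1.30 ± 0.27), the aryl hydrocarbon receptor Ahr (1.09 ± 0.23) and the actin-severing protein Gsn (1.47 ± 0.32), named after their values were seen, also rose.

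Mast cell and basophil genes held the largest rises. Of 36 tested genes of that list Cma1, Prss34 and Il6 rose and none fell (median 0.85), and with the block 10 rose and 1 fell. The other 20 of the 56 listed genes lay below the filter, among them Mcpt1, Mcpt2, Mcpt4, Tpsb2 and Mitf. Among the vehicle libraries Cma1 and Prss34 reached 1 RPKM in DP cells alone, so the filter can favour members that are high there. Cma1, the mast cell chymase, stood at 14.3, 28.5 and 5.46 RPKM in DP1, DP2 and DP3 and at 0 in all SP libraries. Against a floor of 3 reads over the SP group, its level was at least 301.6-fold higher in DP cells (adjusted p = 0.0293). Prss34, a basophil protease, stood at 34.1, 9.99 and 13.4 RPKM in DP cells and was seen in 1 SP library, at 0.139 RPKM. Its 1132 reads in DP cells faced 3 in SP cells, a depth-adjusted ratio of reads of 417.4 (95% exact interval 142.5 to 2027.1, counting error only). Both genes lost their call when any 1 of the 6 libraries was left out. Counting intervals cover neither the spread between libraries nor PCR copies.

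Further members of that list rose with the block alone. Mcpt8, a basophil protease, stood at 109.8, 19.9 and 31.8 RPKM in DP cells and at 3.37, 8.73 and 4.88 RPKM in SP cells (2.95 ± 0.46, adjusted p = 0.00565 with the block and 0.0852 without). Hdc, which makes histamine, stood at 49.9, 10.7 and 13.9 against 3.89, 8.01 and 2.19 RPKM (2.22 ± 0.42, 0.0138). Cpa3, carboxypeptidase A3, stood at 86.9, 10.1 and 8.17 against 2.79, 5.57 and 2.66 RPKM (2.45 ± 0.55, 0.0266). In all of these genes DP1 was the highest library. Fcer1a, the IgE-binding chain of the high-affinity receptor, stood at 21.2, 0.372 and 1.57 RPKM in DP cells and at 0.283, 0 and 0.144 RPKM in SP cells and did not pass the test in either fit (adjusted p = 0.0764 with the block). The genes Mcpt9, Tpsab1, Mrgprx2 and Mrgprb2 of that list were at 0 in all 6 libraries. Its summed level, which includes the protease Ctsg and Cd63, genes that neutrophil precursors use too, was 425.8 to 1212.4 RPKM in DP cells and 347.6 to 764.7 RPKM in SP cells. Without libraries 9 and 10, 5 members rose with the block and 1 fell. In libraries of pooled cells, more cells of a type and more RNA per cell cannot be told apart. Both populations were sorted as CD27+, while the study describes the G0M+ cells with mast-like morphology as CD27-. Whether such cells entered the DP libraries was not tested.

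The chemokine gene Ccl6 stood at 88.0, 2.4 and 22.4 RPKM in DP cells and at 0.372, 0.657 and 0.31 RPKM in SP cells (5.02 ± 1.13, adjusted p = 0.0271 with the block and 0.111 without). Among called genes without overlap its log2 difference with the block was exceeded by those of Cma1, Prss34 and the platelet gene Ppbp. Il4, the interleukin-4 gene, stood at 2.94, 3.49 and 4.61 RPKM in DP cells and at 0.332, 0 and 2.03 RPKM in SP cells (3.04 ± 0.68, adjusted p = 0.027 with the block and 0.16 without). Csf2rb2, a receptor chain for IL-3, stood at 11.2, 2.99 and 5.18 against 1.02, 0.833 and 0.376 RPKM (2.85 ± 0.54, 0.0142 with the block). Il1rl1, the receptor for IL-33, was higher in each DP library, at 2.49 to 9.78 against 0.417 to 1.63 RPKM, but did not pass the test (adjusted p = 0.0551 with the block). The kinase gene Txk rose with the block by 3.41 ± 0.91, and Cyp11a1, the first enzyme of steroid synthesis, rose by 3.31 ± 0.45.

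Il6, the interleukin-6 gene, had the third largest rise among genes called without the block. It stood at 12.6, 4.14 and 8.06 RPKM in DP cells and at 0, 0.103 and 1.37 RPKM in SP cells (4.62 ± 1.08, adjusted p = 0.048), and kept the call in 1 of the 6 fits without a library. Of 56 tested NF-κB target genes it was the 1 that rose, with a median over the list of 0.45, and with the block 11 rose and none fell. Without libraries 9 and 10 the block gave 3. The Il6 promoter (chr5:30012864-30013113, plus strand, 250 bases before the start) is shown because it holds 1 of the NF-κB letter runs searched (3 forms of the NF-κB consensus, either strand) together with a CCAAT box, both in capitals:
Il6 promoter: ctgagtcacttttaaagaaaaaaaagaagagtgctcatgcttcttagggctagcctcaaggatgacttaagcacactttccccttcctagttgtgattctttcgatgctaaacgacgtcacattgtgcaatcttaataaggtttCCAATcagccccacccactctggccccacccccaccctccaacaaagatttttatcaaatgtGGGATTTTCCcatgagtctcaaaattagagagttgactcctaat
These letters were in 6 of the 55 windows of the tested NF-κB genes and in 39 of the 10334 windows of all tested genes. Ltb, lymphotoxin beta, stood at 3.27, 7.0 and 7.35 RPKM in DP cells and at 1.29, 0.646 and 2.37 RPKM in SP cells (2.04 ± 0.21, adjusted p = 0.00203 with the block and 0.0777 without). Cd274, which encodes PD-L1, stood at 8.26, 10.2 and 14.7 against 7.32, 3.53 and 5.65 RPKM (1.01 ± 0.14, 0.00409 with the block). In both genes all DP libraries were above all SP libraries. Of 42 tested IL-1 and Toll-like receptor signal components none passed without the block and 1 rose (Irf7) and 1 fell (Tirap) with it, around a median of 0. Without libraries 9 and 10 the block gave neither a rise nor a fall. The other 16 of the 58 listed genes lay below the filter and were not tested. Most Toll-like receptors were among them, including Tlr1 and Tlr6.

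Of 63 tested interferon-stimulated genes 1 rose without the block. With it 23 rose, 40 did not pass and none fell, with a median of 0.55 and 53 members higher in all 3 pairs; of all tested genes 26.3% were higher in all 3. Slfn5, a Schlafen protein, passed in both fits, at 1.21, 1.35 and 1.68 RPKM in DP cells and 0.3, 0.174 and 0.145 RPKM in SP cells (2.32 ± 0.40, adjusted p = 0.00859). Without the block it lost the call when DP2 or DP3 was left out. Oas2, an antiviral sensor of double-stranded RNA, stood at 3.66, 4.86 and 8.33 against 2.84, 1.13 and 2.06 RPKM and Ifi44 at 2.83, 2.46 and 5.88 against 2.16, 0.628 and 0.536 RPKM. They rose with the block by 1.44 ± 0.17 (adjusted p = 0.00273) and 1.81 ± 0.20 (0.00223), and in both the DP libraries were all above the SP libraries. Without libraries 9 and 10 the block gave 4 rises in the list. Of the MHC class I genes none of 27 passed without the block and 2 rose and 2 fell with it. Of all tested genes 4.17% rose and 5.56% fell with the block. B2m stood at 495.3 to 537.3 RPKM in DP cells and 420.3 to 506.2 RPKM in SP cells. Of 15 tested MHC class II genes 3 rose with the block and none without, with a median of 0.99. When 1 library was left out, that median ran from 0.46 (without SP2) to 1.22 (without SP1). Cd74, the invariant chain, varied from 6.18 RPKM in DP1 to 48.2 RPKM in DP3 and from 2.37 RPKM in SP2 to 15.9 RPKM in SP1, higher in DP cells of each pair, and did not pass (adjusted p = 0.0686 with the block).

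**Figure D5:**
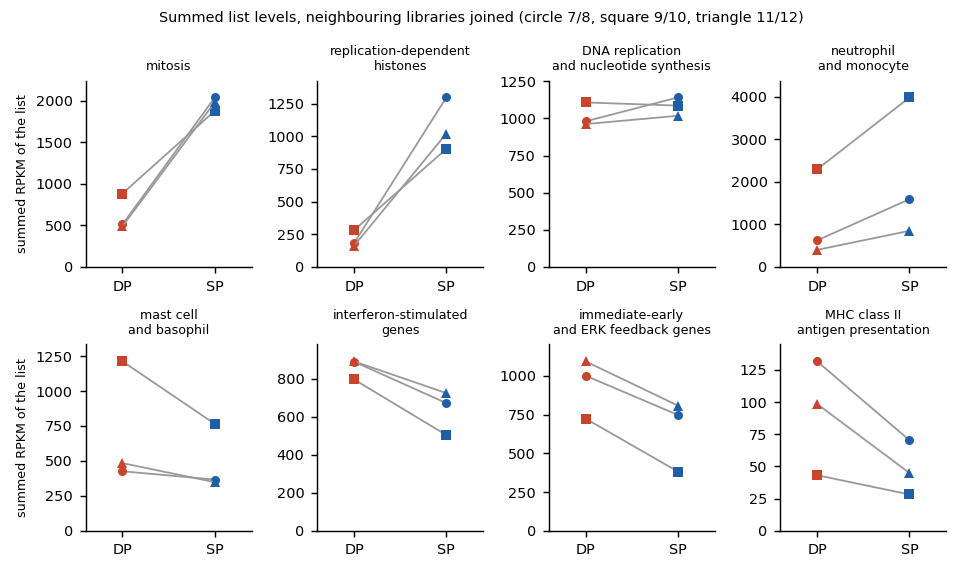
Summed RPKM of the members of 8 gene lists in each library, with lines joining neighbouring library numbers (DP left in red, SP right in blue). Mitosis and histone sums lie lower in every DP library. For neutrophil and monocyte genes and for mast cell genes, the joined libraries DP1 and SP2 are the highest of their populations. For MHC class II genes DP1 and SP2 are the lowest of their populations.

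Of 36 tested immediate-early and ERK feedback genes 28 were higher in DP cells of all 3 pairs, as were 26.3% of all tested genes. All 36 had a log2 difference above 0, with a median of 0.54. That median was 0.25 without SP2 and 0.77 without DP1 or SP3. Of the 36 genes 1 passed without the block and 10 with it, and 3 with the block without libraries 9 and 10. Dusp5, the nuclear phosphatase that ERK induces against itself, stood at 26.1, 61.2 and 46.3 RPKM in DP cells and at 13.5, 7.04 and 19.0 RPKM in SP cells and rose by 1.78 ± 0.34 (adjusted p = 0.016). It lost this call when DP2, DP3, SP1 or SP2 was left out. The AP-1 genes Fosl2 and Junb rose with the block by 1.21 ± 0.15 (adjusted p = 0.0028) and 0.67 ± 0.11 (0.00898), whereas Fos, another AP-1 gene, at 55.2 to 159.3 RPKM over the 6 libraries, did not pass (0.34 ± 0.18). Of 27 tested STAT5 target and SOCS feedback genes, the readout of the pathway that BCR-ABL1 activates, 25 were above 0, none passed without the block and 8 rose with it, or 2 without libraries 9 and 10. Cish, a feedback inhibitor, stood at 16.5, 40.8 and 12.4 RPKM in DP1, DP2 and DP3 and at 5.09, 22.3 and 8.8 RPKM in their partners SP2, SP3 and SP1 (1.01 ± 0.22, adjusted p = 0.0234 with the block). Its level thus varied between pairs and was higher in DP cells of each. Pim2, a survival kinase, rose likewise (0.89 ± 0.20, 0.0256). Tnfrsf18 (GITR) and Tnfsf10 (TRAIL) were above the SP libraries in all DP libraries and rose with the block by 1.18 ± 0.19 and 0.81 ± 0.14. Of 18 checkpoint genes 3 rose and 1 fell with the block, and 1 and 1 without libraries 9 and 10. Among the rises was Havcr2 (TIM-3), at 1.01 to 1.92 against 0.143 to 0.491 RPKM (adjusted p = 0.0347).

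Of 62 tested genes of haematopoietic stem cells (HSC) none passed without the block, 54 had a log2 difference above 0 and the median was 0.48. That median was 0.24 without SP2 and 0.64 without SP3. With the block 13 rose and 1, Lyl1, fell; without libraries 9 and 10 it gave 4 rises. Ly6a, the Sca-1 gene used in the gate, stood at 11.3, 5.61 and 18.3 RPKM in DP1, DP2 and DP3 and at 3.12, 3.63 and 6.89 RPKM in their partners SP2, SP3 and SP1, and rose with the block (1.28 ± 0.24, adjusted p = 0.0136). Robo4, a receptor of HSC, stood at 0.763, 2.0 and 3.48 RPKM in DP cells and 0.0734, 0.851 and 1.17 RPKM in the same partners (1.65 ± 0.28, 0.0083 with the block). Gimap6 rose by 1.17 ± 0.17 and Ltbp3, which holds latent TGF-β, by 1.00 ± 0.17. Of the HSC transcription factors and receptors named after their values were seen, Mecom passed with the block (0.86 ± 0.23, adjusted p = 0.0459), and Mycn (0.77 ± 0.25), Gata2 (0.70 ± 0.26), Procr (1.13 ± 0.33) and Hlf (0.41 ± 0.17) did not, with adjusted p of 0.0631 to 0.165.

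Of 36 tested neutrophil and monocyte genes 19 were lower in DP cells of all 3 pairs, as were 28.8% of all tested genes, and 1 was higher in all. None passed without the block, and 12 fell and none rose with it, around a median of -0.44. When 1 library was left out, the median ran from -0.21 (without DP2) to -1.13 (without DP1, where 2 genes fell). Their summed level was 2289.2 and 3979.8 RPKM in DP1 and SP2, 621.7 and 1589.1 RPKM in DP3 and SP1, and 398.9 and 846.9 RPKM in DP2 and SP3. Mpo, myeloperoxidase, stood at 766.1, 138.9 and 37.8 RPKM in DP1, DP3 and DP2 beside 1389.2, 508.3 and 240.8 RPKM in SP2, SP1 and SP3 (-1.80 ± 0.30, adjusted p = 0.00859 with the block and 0.465 without). Ms4a3, a marker of granulocyte and monocyte progenitors, stood at 88.8, 14.1 and 6.27 beside 184.0, 56.6 and 34.8 RPKM (-1.83 ± 0.25, 0.00362). The elastase gene Elane, named after its values were seen, stood at 270.8, 41.3 and 5.97 beside 577.0, 160.3 and 40.7 RPKM (-1.93 ± 0.44, 0.028). In all of these genes the DP library was the lower of each pair, and libraries 9 and 10 were the highest of their populations. Without libraries 9 and 10 the block still gave 12 falls, so the count did not rest on that pair.

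Genes of other blood lineages were higher in DP cells mainly in libraries 9 and 10. For megakaryocyte and platelet genes the median difference was 1.96 in that pair and 0.25 in each of the others; none of 30 passed without the block and 3 rose with it, 1 without libraries 9 and 10. Ppbp, the platelet basic protein, stood at 57.8, 1.59 and 6.55 RPKM in DP1, DP2 and DP3 and at 0.109, 0 and 0.0898 RPKM in SP2, SP3 and SP1 (adjusted p = 0.0126 with the block and 0.101 without). Tubb1, the platelet tubulin, at 8.35, 0.223 and 2.06 RPKM in DP1, DP2 and DP3 and at 0, 0 and 0.194 RPKM in the same partners, did not pass (0.0584 with the block). Of 24 tested erythroid genes none passed without the block, and 4 rose and 1 fell with it, or 1 and 1 without libraries 9 and 10. The globins Hba-a1 and Hbb-bs were at most 21.8 RPKM in any library and rose with the block, while the more abundant Hbb-bt stood at 174.6, 226.2 and 189.7 RPKM in DP cells and 75.3, 44.6 and 139.9 RPKM in SP cells without passing (1.33 ± 0.46, adjusted p = 0.101 with the block).

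Markers of macrophages, lymphocytes and stroma were sparse. Of 30 macrophage genes 13 were tested; Hmox1 rose, and with the block C1qc, Adgre1 and Apoe rose too, around a median of 1.02. The block gave 1 rise without libraries 9 and 10. C1qc had 44 reads in DP cells and none in SP cells, at least 16.2-fold higher against a floor of 3 reads. Of the 13 tested genes 4 had all DP libraries above all SP libraries, as had 9.68% of all tested genes. The listed genes Marco, Timd4, Ms4a7 and Vsig4 were at 0 in all 6 libraries. The summed level of the list was 45.5 to 60.0 RPKM in DP cells and 31.6 to 38.5 RPKM in SP cells. Of 50 lymphoid genes 14 were tested and none passed in either fit. The B cell factors Ebf1 and Pax5, the T cell gene Cd3e and Tbx21 were at 0 in all 6 libraries. Dntt of the same list had 75 reads in DP cells and 2 in SP cells without passing. Its depth-adjusted ratio of reads was 41.5 (95% exact interval 11.1 to 348.8, counting error only). The summed level of the list overlapped, at 156.3 to 254.7 and 147.5 to 337.7 RPKM. Of 31 stromal and endothelial genes 10 were tested and none passed, with Pdgfra, Sp7, Bglap, Lum, Dcn and Postn at 0 throughout. The part of these cell types in the mast cell, interferon or NF-κB results was not tested.

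Ribosomal and metabolic genes differed little. None of 79 ribosomal protein genes passed without the block and Rpl37 alone passed with it (0.35 ± 0.10, adjusted p = 0.0496), around a median of 0.07. Of 75 respiratory chain subunits 6 had a log2 difference above 0, around a median of -0.21. Of the 75, 41 were lower in DP cells of all 3 pairs, as were 28.8% of all tested genes. None passed without the block. With the block 4 fell, as did 5.56% of all tested genes. Cycs, cytochrome c, stood at 16.6, 9.3 and 7.71 RPKM in DP cells and at 14.8, 23 and 17.5 RPKM in SP cells (-0.77 ± 0.12, adjusted p = 0.0059 with the block). Glycolysis and HIF target genes were split, with 3 rises and 3 falls among 35 with the block, where 4.17% of all tested genes rose and 5.56% fell. The falls were Hk3, Pgam1 and Eno1, of which Eno1, enolase, stood at 138.2, 72.8 and 58.1 RPKM in DP1, DP2 and DP3 and at 190.0, 84.9 and 95.6 RPKM in their partners SP2, SP3 and SP1 (-0.47 ± 0.11, 0.0286). Hmox1, Hilpda and Ldhb rose.

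The same contrast was available in cells of imatinib-treated mice, in 6 other libraries (IMDP and IMSP). All 228 genes called under vehicle had the same sign there, and 216 of them also passed the test, in a contrast where 25.6% of genes were called. The median log2 difference of the mitosis list was -2.97 under imatinib and -2.15 under vehicle, and that of the histone list -3.76 and -2.61. Other lists differed to varying degrees. In the same order, DNA replication genes stood at -0.76 and -0.1, and neutrophil and monocyte genes at -1.69 and -0.44. MHC class II genes stood at 0.31 and 0.99, NF-κB target genes at 0.12 and 0.45, and HSC genes at 0.56 and 0.48. Lists were not tested between the treatments. The difference between the 2 contrasts was tested as an interaction in limma. It passed for 0 of 10072 genes, with 937 at an unadjusted p under 0.05, and a p that misses the threshold does not show that the contrasts are alike.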

How the data were processed

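The authors deposited RPKM per feature (reads per kilobase of feature, scaled to mapped reads) for each library, aligned to GRCm38 (mm10). The study's methods name CLC Genomics Workbench and edgeR, its reporting summary HISAT2 and featureCounts, and which made the deposited values is not given in the sources used here. The low RPKM values were whole multiples of 1 read for all 17735 features above 0 (tolerance 0.01 reads). The depth was estimated from these steps together with annotated gene lengths. Numbered copies (4568 features of 1934 genes) were summed, leaving 46103 genes. Genes with at least 1 RPKM in 3 of the 12 libraries were kept (10072).

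Differences were tested on log2(RPKM + 0.1) with limma 3.58.1 in R 4.3.3, with 1 mean for each of 4 groups over 12 libraries, Benjamini-Hochberg adjustment and a threshold of 0.05. Fold changes on this scale understate those of low genes. The script was tested on simulated data. Library numbers in the labels were taken as pairing the samples because all 3 deviation correlations exceeded 0.1. Median scaling, other filters and pseudocounts, limma-voom on recovered reads, the 6 vehicle libraries alone and leaving out libraries were tried as alternatives. Of these, the block after median scaling and the block without a library pair were chosen after seeing the data.

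Named genes were the label checks, the 12 largest rises and falls without overlap, the 12 largest of each that passed with the block alone, and per list the 4 smallest adjusted p in each fit, the 2 highest levels and called members against the list's direction. Other genes are said to be named after their values were seen; so were Foxm1, Cdk1, Ccnb1, Aurka, Hdc, Cpa3, Fcer1a and Cdk6. The comparison, its members and the gene lists were chosen with earlier results of these data known. Coordinates are those of GRCm38. A few genes that these rules would name are not reported here.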

Additional observations from a re-analysis of the deposited data

How the results depend on the processing

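The counts of called genes, 228 in all with 29 higher and 199 lower, depended most on the pairing. With neighbouring library numbers as a replicate block limma called 980 genes, 420 higher and 560 lower, and 1479, 768 and 711 when each library was also scaled to the same median. Without libraries 9 and 10 the block gave 435 genes (98 higher, 337 lower), and it gave 75 higher without 7 and 8 and 106 higher without 11 and 12. Leaving out 1 library without the block gave 125 to 258 genes, 8 to 26 higher and 110 to 239 lower. The number higher was 16 with a filter of 5 RPKM, 64 with limma-voom, 48 with reads on listed features as the denominator and 53 after median scaling. The cause was not tested. A block by the replicate numbers of the titles, whose samples share only a number (correlations -0.19, -0.30 and -0.10), gave 233 genes. The difference between the vehicle and imatinib contrasts passed for 0 genes in limma and in every alternative run, against 937 at an unadjusted p under 0.05.

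Among the genes named in the report, the log2 differences of 5 that had not passed the test changed sign. Cdkn1b was at -0.05 and -0.09 with the block without libraries 7 and 8 or 9 and 10, and from -0.19 (without SP2) to 0.11 (without DP1) without 1 library. Without 1 library Cd63 ranged from -0.15 (SP1) to 0.58 (SP2), and Hlf at -0.22 without DP3 and -0.05 without SP3. Mcm7 was at 0.00 with the block without libraries 7 and 8, at 0.03 after median scaling with or without the block, at 0.02 with limma-voom, at 0.04 with listed reads as denominator, and from -0.07 (without SP3) to 0.05 (without SP1) without 1 library. Cdk6 was at 0.01 with listed reads as denominator and at 0.02 without SP2. Depth limited the low genes: 1 read was worth 0.0489 to 0.0747 RPKM at a length of 1 kilobase, so that genes such as Hist1h4a and C1qc rested on few reads.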

Other observations

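Of the chaperone genes of the endoplasmic reticulum, 7 that were lower in DP cells and passed the test only with the block were picked after their values were seen, and were not tested as a set. Canx, the related chaperone calnexin, did not pass (-0.32, limma adjusted p = 0.0979 with the block). Calr, the lectin chaperone calreticulin, stood at 310.8, 151.4 and 151.7 RPKM in DP1, DP2 and DP3 and at 549.8, 234.6 and 278.9 RPKM in their partners SP2, SP3 and SP1 (-0.78 ± 0.09, limma adjusted p = 0.00265 with the block and 0.402 without). Hsp90b1, the endoplasmic HSP90, stood at 94.2, 46.1 and 43.3 beside 134.9, 63.0 and 78.5 RPKM (-0.61 ± 0.11, 0.0105). Hyou1 (-0.69), Pdia4 (-0.63), Manf (-0.71), Creld2 (-0.77) and Sdf2l1 (-0.73) passed with the block as well. DP1 and SP2, the libraries highest in neutrophil and monocyte genes, were the highest of their populations for all 7 genes. The part of those cells in the difference was not tested.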
